A study of Macaca mulatta with 24 samples.

Results

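The genes described are the translation initiation factors of rhesus macaque airway epithelium, with EIF4A2, an RNA helicase of the cap-binding complex, in first place. This set of genes was chosen with earlier results of these data known, so its calls, that of EIF4A2 included, do not come from a blind choice. Within the set, members were taken by symbol alone: every gene of the table whose symbol begins with EIF and a digit. Each also had to meet a minimum, reaching 10 in 4 or more libraries. The table holds 48 genes with such a symbol, and 47 of them met the minimum, out of 14062 genes that met it and 35432 genes in all. The 1 gene below it was EIF1AY, close to 0 in every library. Another 4 genes (EIF1, EIF2S3, EIF3C and EIF5A) carry no symbol in the table and are named only by the reference gene table. They fall outside the rule, and all 4 met the minimum. None of them was called for smoke at any time in the fits of all 24 libraries, with or without animal as a block. Only these fits were read for them. EIF5A was at 6443 in the 5-day air library of S1, against 2758 to 3123 in the other 5-day air libraries, and was not read without that library.

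Airway cells of 4 adult female animals (S1 to S4) were grown on porous membranes with their upper side in air, in medium with retinoic acid, and given wood smoke or filtered air for 6 hours a day. S1 was 5463 days old, S2 2930 days, S3 2238 days and S4 1128 days. The groups are wood smoke and filtered air after 1 day, wood smoke and filtered air after 5 days, and wood smoke and filtered air at the end of 7 days of recovery, and each animal gave 1 library to each group, which makes 24. Each animal gave cells to every group, so the groups are 4 animals each and the same 4 animals, and age cannot be told apart from animal.

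Translation of most messenger RNAs begins when eIF4E binds the cap at their 5′ end and eIF4G, a scaffold, joins it to the helicase eIF4A, which opens structure in the leader. The 43S complex, which carries eIF1, eIF1A, eIF3, eIF5 and the initiator tRNA on eIF2, is then recruited and scans to the start codon. Stress kinases phosphorylate eIF2 and so block its exchange factor eIF2B, and unphosphorylated 4E-binding proteins hold eIF4E away from eIF4G, which are the main brakes on initiation in cells under stress. EIF4A1 and EIF4A2 encode close paralogs that both serve as eIF4A, and EIF4A2 has also been linked to repression by microRNAs, while EIF4A3 belongs to the exon junction complex.

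The values are normalized counts per gene and library and are not divided by gene length, so levels are compared between libraries and not between genes. Library totals ranged from 11.8 to 15.2 M and approximate depths from 9.72 to 17.4 M reads. The 47 genes together made up 0.591 to 0.696% of each total. The cells carried airway epithelial markers: the 6 basal markers matched by symbol summed to 19640 to 65198 and the 6 multiciliated markers to 3708 to 27194 in each library. The 5 secretory markers matched by symbol summed to 46.9 to 13180, a wide range between libraries. Of 4 general epithelial markers, 2 were matched, with a sum of 2286.5 to 5724.6, and KRT8 and KRT18 were not matched. Of other cell types, the leukocyte markers PTPRC, CD3E, CSF1R and CD79A, the fibroblast markers DCN, LUM and PDGFRB and the endothelial marker CDH5 stayed below 10 in every library. The other markers on these lists met the minimum: 4 of 5 endothelial markers, with a list sum of 1488 to 20706 per library, 2 of 6 leukocyte markers, with a sum of 1514 to 4765, and 3 of 6 fibroblast markers, with a sum of 6.38 to 87.7. Their part in the results was not tested. In bulk RNA, fewer cells of a type and less RNA per cell cannot be told apart.

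One library stood apart. The air library of S1 at 5 days had a median correlation of 0.860 with the others, against 0.931 to 0.956 for the remaining 23. It held the highest of the 24 values for 23 of the 47 initiation factors and the lowest for 11, and the next library in this respect held 7. The main results that rest on the 5-day air group are given with and without it.

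EIF4A2 was lower in smoke than in air at 5 days. At 5 days it had 3162, 3572, 3425 and 3029 normalized counts in the smoke libraries of S1 to S4, against 5576, 5498, 5500 and 5232 in the air libraries. Every smoke value lay below every air value, by more than the whole spread within either group. Smoke libraries averaged 3297 ± 246 and air libraries 5451 ± 151 (SD, n = 4 each), so the smoke level was 0.605 of the air level. The log2 change was −0.73 ± 0.10 (SE, limma adjusted p = 0.00172), and it was the third smallest p of the 14062 genes. Of the 47 initiation factors, 1 was called at 5 days, where 0.0711% of all genes were called.

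The EIF4A2 difference had the same sign and a like size in each animal. The smoke minus air difference on the log2 scale was −0.82 in S1, −0.62 in S2, −0.68 in S3 and −0.79 in S4. The limma adjusted p was 0.000189 with animal as a block. Leaving out the library that stood apart gave a log2 change of −0.72 (limma adjusted p = 0.00182). The unblocked call was lost with S4 left out (−0.71, limma adjusted p = 0.339, or 0.0446 with animal as a block). Without S4, 0.0142% of all genes were called, or 0.064% with animal as a block. The EIF4A2 call was also lost when only the 8 libraries of 5 days were fitted (−0.73, limma adjusted p = 0.971, or 0.804 with animal as a block). With only those libraries 0 of the 14062 genes were called, with or without the block.

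After 1 day the EIF4A2 groups lay apart, but the gene was not called in the fits of all 24 libraries. Smoke libraries had 3668, 3582, 3656 and 3409 normalized counts, against 4500, 4028, 4418 and 4195 in air libraries. The groups did not overlap, and smoke was lower in every animal. The log2 difference was −0.26 ± 0.10 (SE, limma adjusted p = 1.00 and unadjusted p = 0.0173, or 0.694 adjusted with animal as a block). It was called when only the 8 libraries of 1 day were fitted with animal as a block (limma adjusted p = 0.000625), a fit that called 9.11% of all genes.

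At the end of recovery the difference had the opposite sign. EIF4A2 had 3231, 2882, 4149 and 3198 normalized counts in smoke libraries, against 2635, 2529, 3234 and 2630 in air libraries. The groups overlapped, since S3 was the highest animal in both, but smoke was higher in 4 of 4 animals. The log2 difference of 0.28 ± 0.10 (SE) was not called (limma adjusted p = 0.342, or 0.0693 with animal as a block). It was called with animal as a block once the 5-day air library of S1 was left out (limma adjusted p = 0.0104).

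The change of the smoke effect between 5 days and recovery was itself tested, and it passed. It came to 1.01 ± 0.14 on the log2 scale (SE, limma adjusted p = 0.00351, or 0.000387 with animal as a block), the second smallest p of the 14062 genes. EIF4A2 was the 1 initiation factor called for this change, where 0.348% of all genes were. The call was lost with S4 left out (0.99, limma adjusted p = 0.296, or 0.0663 with animal as a block), where 0.00711% of all genes were called with or without the block. The unblocked call was also lost when only the libraries of these times were fitted (1.01, limma adjusted p = 0.0595, or 0.0101 with animal as a block). With only those libraries 0.00711% of all genes were called, or 0.519% with the block. Leaving out the library that stood apart gave 1.00 (limma adjusted p = 0.00100). Between 1 day and 5 days the smoke effect on EIF4A2 differed by −0.47 ± 0.14 (SE), which was not called (limma adjusted p = 0.953, or 0.224 with animal as a block).

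The air means of EIF4A2 moved over time more than its smoke means did. In air the means were 4285 ± 214 at 1 day, 5451 ± 151 at 5 days and 2757 ± 322 at recovery (SD, n = 4 each). In smoke the means were 3579 ± 119, 3297 ± 246 and 3365 ± 546 at the same times. In air, EIF4A2 fell by 0.99 ± 0.10 on the log2 scale at recovery against 5 days (SE, limma adjusted p = 9.43e-06), and was 0.35 ± 0.10 higher at 5 days than at 1 day (SE, limma adjusted p = 0.0525, or 0.00914 with animal as a block). The blocked call of that difference was lost with S2 or S4 left out (limma adjusted p = 0.0536 and 0.0735). Those fits called 7.34% and 5.59% of all genes, against 19.4% with all 4 animals. The fall in air was no longer called with animal as a block when only the libraries of these times were fitted (limma adjusted p = 0.0672). That fit called 0.0284% of all genes. In smoke it was −0.12 ± 0.10 at 5 days against 1 day (limma adjusted p = 0.871) and 0.02 ± 0.10 at recovery against 5 days (limma adjusted p = 0.969). The changes over time and the smoke effects share libraries, so they are not separate evidence.

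**Figure D1:**
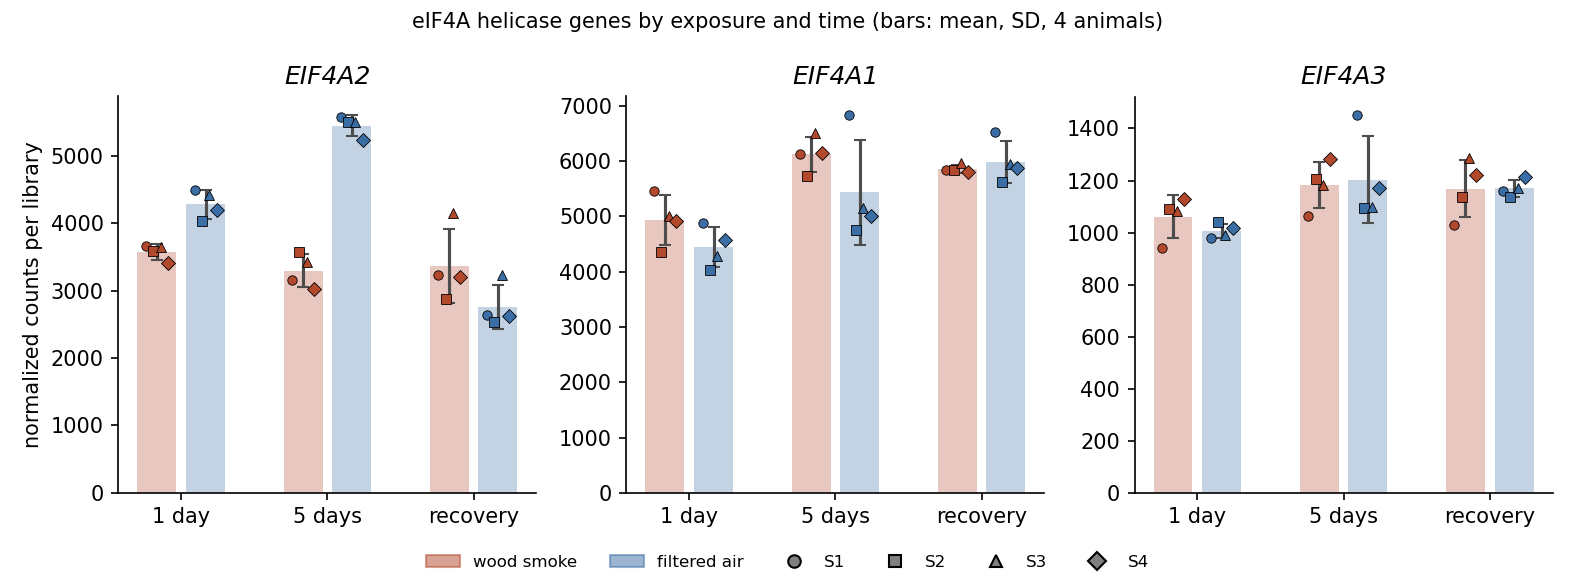
Normalized counts of EIF4A2, EIF4A1 and EIF4A3 per library at 1 day, 5 days and recovery, with smoke left of air at each time, a symbol per animal, and bars and whiskers for the mean and SD of 4 animals. The EIF4A2 air values lie between 5232 and 5576 at 5 days and between 2529 and 3234 at recovery, while the smoke values lie between 2882 and 4149 throughout.

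Neither paralog of EIF4A2 was called for smoke against air at any time in the fits of all 24 libraries. EIF4A1, the major eIF4A of dividing cells, had 6123, 5728, 6503 and 6140 normalized counts in smoke libraries at 5 days, against 6826, 4750, 5151 and 5006 in air libraries. The air value of S1 lay above all smoke values, and the other 3 air values lay below all of them. The difference was 0.19 ± 0.10 (SE, limma adjusted p = 0.600), and with animal as a block, once the S1 air library was left out, it was 0.27 and called (limma adjusted p = 0.00651).

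Over the course of smoke exposure EIF4A1 had 5453, 4351, 5009 and 4915 normalized counts at 1 day and 5831, 5829, 5956 and 5810 at recovery. In air libraries it had 4875, 4029, 4281 and 4579 normalized counts at 1 day. The 5-day air values given above exceeded these in every animal, by 0.28 on the log2 scale, so a rise by 5 days was not particular to smoke. The 5-day smoke values exceeded those at 1 day in every animal, by 0.32 ± 0.10 (SE, limma adjusted p = 0.316). This increase in smoke was called with animal as a block (limma adjusted p = 0.0281, where 3.48% of all genes were called, against 0.284% without the block). The call was lost with S2, S3 or S4 left out (limma adjusted p = 0.239, 0.321 and 0.253). Those fits called 0.64%, 0.299% and 0.604% of all genes. EIF4A3 had 1065, 1204, 1182 and 1282 normalized counts in smoke libraries at 5 days, against 1450, 1094, 1099 and 1173 in air libraries, and its groups overlapped. Its log2 differences were 0.07, −0.02 and 0.00 at 1 day, 5 days and recovery, with SEs of 0.10 each.

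The balance between the 2 paralogs differed with smoke and time. The ratio of EIF4A2 to EIF4A1 was 0.673 to 0.823 in smoke libraries and 0.916 to 1.03 in air libraries at 1 day. At 5 days it was 0.493 to 0.624 in smoke and 0.817 to 1.16 in air, and at recovery 0.494 to 0.697 in smoke and 0.404 to 0.544 in air. The groups lay apart at 1 day and 5 days and overlapped at recovery. The ratios are not per length, and it is not given in the sources used here how reads that fit both paralogs were divided, so the ratios serve only to compare libraries.

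Of the 3 scaffold genes, 1 was called at recovery with animal as a block, where 3.41% of all genes were called. Without the block limma called 0 of them, where 0.242% of all genes were called. The 1 was EIF4G1, which encodes the main scaffold that holds eIF4E, eIF4A and eIF3 together. At recovery it had 6977, 4720, 5224 and 4570 normalized counts in smoke libraries, against 8016, 6514, 6954 and 6268 in air libraries. Smoke was lower in 4 of 4 animals although the groups overlapped, with S1 highest in both. The log2 difference was −0.38 ± 0.13 (SE, limma adjusted p = 0.30), and EIF4G1 was called lower in smoke than in air with animal as a block (limma adjusted p = 0.0218). The blocked call was lost with S2, S3 or S4 left out (limma adjusted p = 0.226, 0.224 and 0.301). Those fits called 0.256%, 0.235% and 0.156% of all genes, against 3.41% with all 4 animals.

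At 5 days EIF4G1 stood the other way. Smoke libraries had 8059, 5707, 6679 and 6399 normalized counts, against 4975, 4834, 6034 and 5179 in air libraries. Smoke was higher in 4 of 4 animals and the groups overlapped. The difference of 0.35 ± 0.13 (SE) was not called (limma adjusted p = 0.393, or 0.0534 with animal as a block). It was 0.25 and called once the S1 air library was left out and animal was a block (limma adjusted p = 0.0368).

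The change of the EIF4G1 smoke effect from 5 days to recovery was −0.73 ± 0.18 (SE, limma adjusted p = 0.0922), and it was called with animal as a block (limma adjusted p = 0.00344). That call was lost with S2, S3 or S4 left out (limma adjusted p = 0.0654, 0.0567 and 0.110). Those fits called 0.654%, 0.441% and 0.00711% of all genes, against 3.56% with all 4 animals. The change was −0.71 once the library that stood apart was left out, or −0.63 also with animal as a block (limma adjusted p = 0.0608 and 0.000266). EIF4G1 thus differed in the opposite direction to its partner EIF4A2 at 5 days, at recovery and in the change between them. In air, EIF4G1 averaged 6906 ± 460 at 1 day, 5255 ± 538 at 5 days and 6938 ± 773 at recovery (SD, n = 4 each). EIF4G2, which encodes a scaffold without the eIF4E-binding site, had the highest mean of the 47 genes on this scale, 13504, and its smoke differences were 0.02, 0.03 and 0.05 at 1 day, 5 days and recovery. The largest of the 3 had a limma adjusted p of 0.963. EIF4G3, the third scaffold gene, differed by 0.19 at 5 days and −0.08 at recovery (limma adjusted p = 0.854 and 0.991), and its 5-day difference was −0.27 once the library that stood apart was left out.

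**Figure D2:**
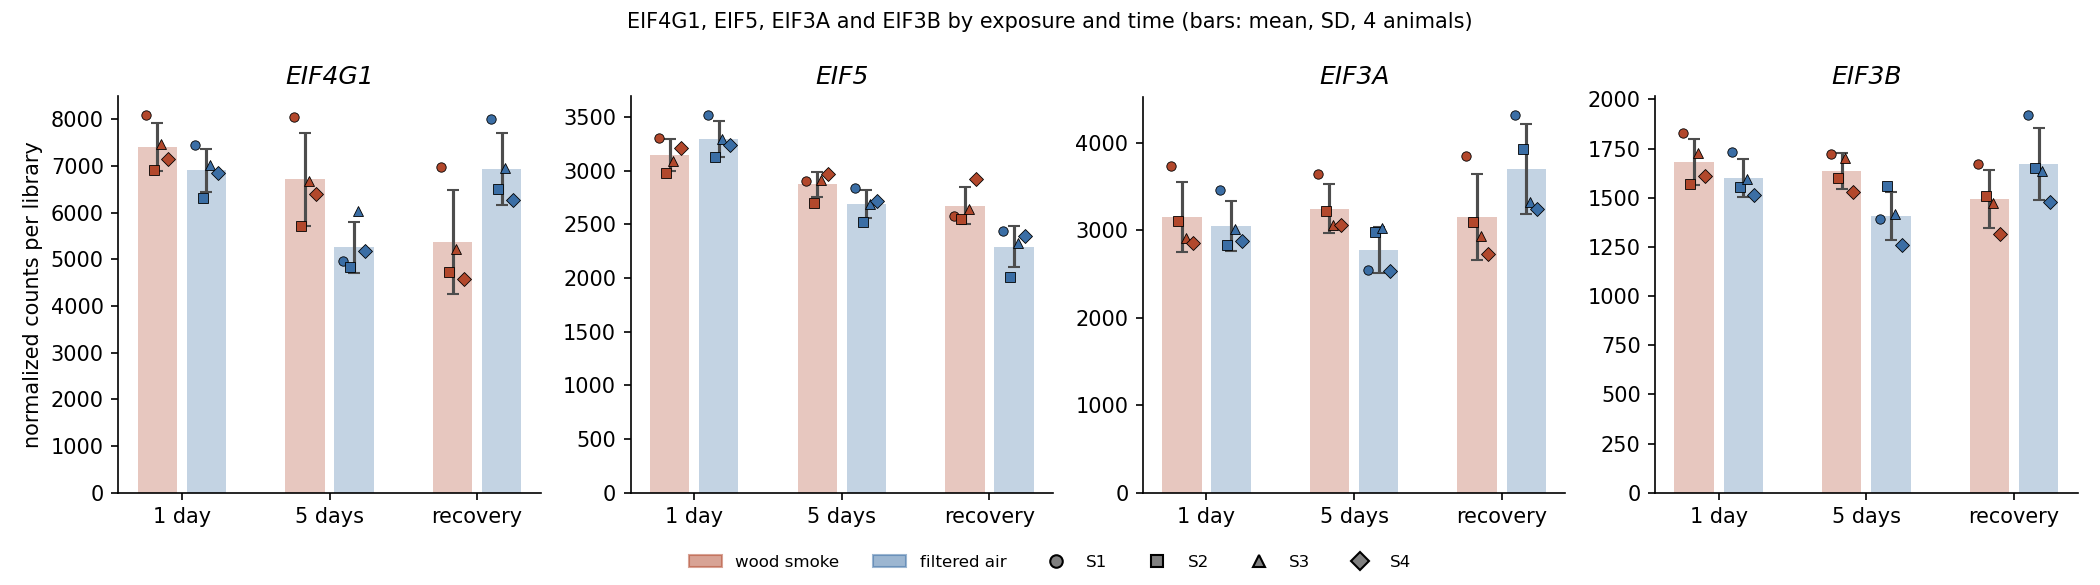
Normalized counts of EIF4G1, EIF5, EIF3A and EIF3B per library, with smoke left of air at each time, a symbol per animal, and bars and whiskers for the mean and SD of 4 animals. EIF4G1 and EIF3A are higher in smoke at 5 days and lower in smoke at recovery in each of the 4 animals, and the EIF5 smoke values at recovery lie above all air values.

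The 43S complex gave few calls. EIF5 encodes the factor that triggers hydrolysis of GTP by eIF2 at the start codon. At recovery it had 2576, 2545, 2640 and 2925 normalized counts in smoke libraries, against 2438, 2010, 2324 and 2390 in air libraries. Every smoke value lay above every air value. The log2 difference was 0.22 ± 0.08 (SE, limma adjusted p = 0.329), and EIF5 was called higher in smoke than in air with animal as a block (limma adjusted p = 0.0442). The blocked call was lost with S2, S3 or S4 left out (limma adjusted p = 0.362, 0.305 and 0.447). As given for EIF4G1, those fits called 0.256%, 0.235% and 0.156% of all genes.

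EIF3A and EIF3B encode core subunits of eIF3, the large complex that holds the 43S complex together. At 5 days EIF3A had 3644, 3220, 3058 and 3056 normalized counts in smoke libraries, against 2548, 2978, 3021 and 2535 in air libraries, and at recovery 3846, 3097, 2930 and 2725 in smoke against 4310, 3924, 3321 and 3236 in air. Smoke was higher in every animal at 5 days, without overlap, and lower in every animal at recovery, with overlap. The change of its smoke effect from 5 days to recovery was −0.46 ± 0.17 (SE, limma adjusted p = 0.304), and that of EIF3B was −0.38 ± 0.13 (SE, limma adjusted p = 0.268). Both changes were called with animal as a block (limma adjusted p = 0.0457 for EIF3A and 0.0367 for EIF3B). The EIF3A call was lost with S2, S3 or S4 left out (0.193, 0.128 and 0.320), and so was that of EIF3B (0.0877, 0.204 and 0.310). Those fits called 0.654%, 0.441% and 0.00711% of all genes. In the blocked fit without the library that stood apart, the changes were −0.35 for EIF3A and −0.33 for EIF3B (limma adjusted p = 0.00856 and 0.00978).

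Of the 12 eIF3 genes, 11 had a log2 difference above 0 at 1 day, 5 at 5 days and 4 at recovery. The medians were 0.05, −0.06 and −0.04, and none of the 12 was called at any single time in the fits of all 24 libraries. EIF3M, another eIF3 subunit, did not overlap at 5 days, with 1078, 1202, 1133 and 1132 normalized counts in smoke libraries and 998, 1018, 1072 and 995 in air libraries. Its difference of 0.15 ± 0.07 (SE) was not called (limma adjusted p = 0.542), and was 0.14 without the library that stood apart (limma adjusted p = 0.486).

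The genes that regulate eIF2 were not called for smoke against air in the fits of all 24 libraries. All 4 eIF2 kinases were measured: EIF2AK1 (HRI, activated by lack of heme), EIF2AK2 (PKR, by double-stranded RNA), EIF2AK3 (PERK, by unfolded proteins in the endoplasmic reticulum) and EIF2AK4 (GCN2, by lack of amino acids). At 5 days EIF2AK4 had 726, 722, 582 and 662 normalized counts in smoke libraries, against 445, 593, 604 and 553 in air libraries, a log2 difference of 0.30 ± 0.11 (SE, limma adjusted p = 0.399), or 0.20 without the library that stood apart (limma adjusted p = 0.516). EIF2AK3 had the largest difference above 0 of the 47 genes at 5 days, 0.53 ± 0.28 (SE, limma adjusted p = 0.585). It rested on the library that stood apart, where EIF2AK3 was at 95.2, and was 0.12 without it.

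Of the 5 eIF2B subunits, 5 lay above 0 at recovery, with a median log2 difference of 0.05. EIF2B3, which encodes the gamma subunit, led with 193, 190, 165 and 233 normalized counts in smoke libraries, against 142, 148, 161 and 160 in air libraries. The groups did not overlap, and the difference of 0.34 ± 0.13 (SE) was not called (limma adjusted p = 0.368, or 0.126 with animal as a block). It was called with the block once the library that stood apart was left out (limma adjusted p = 0.0312). EIF2S2, the beta subunit of eIF2, had 2007, 1709, 2277 and 2103 normalized counts in smoke libraries at 5 days, against 3467, 1551, 1601 and 1688 in air libraries. With the air library of S1 its difference was 0.04, and without that library it was 0.32, called with animal as a block (limma adjusted p = 0.0372).

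The 4E-binding proteins were not called for smoke against air in the fits of all 24 libraries either. At recovery all 4 genes of this group lay below 0, with a median log2 difference of −0.15. EIF4EBP2 was the lowest of them at −0.29 ± 0.24 (SE, limma adjusted p = 0.864), with 875, 913, 838 and 1045 normalized counts in smoke libraries, against 1039, 1133, 1099 and 1226 in air libraries. It was lower in 4 of 4 animals, and was called with animal as a block once the library that stood apart was left out (limma adjusted p = 0.0147). EIF4EBP1 differed by −0.43 ± 0.27 at 5 days (SE, limma adjusted p = 0.631) and by −0.04 without that library, where it was at 633. In human, EIF4EBP3 can be read through from its neighbour, so its values are uncertain.

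EIF6, which keeps free large ribosomal subunits from joining small ones, did not overlap at 1 day. It had 863, 810, 754 and 804 normalized counts in smoke libraries, against 748, 729, 706 and 667 in air libraries, a log2 difference of 0.18 ± 0.17 (SE, limma adjusted p = 1.00). At 5 days it was at 1716 in the air library of S1 and between 733 and 805 in the other air libraries, against 894 to 919 in smoke libraries. Its difference there was −0.06 with that library and 0.22 without it. EIF5A2, which encodes a minor form of the elongation and termination factor eIF5A, had the lowest mean of the 47 genes on this scale, 58.7, and differed by 0.05, 0.02 and −0.15 at 1 day, 5 days and recovery, with SEs of 0.30 each.

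**Figure D3:**
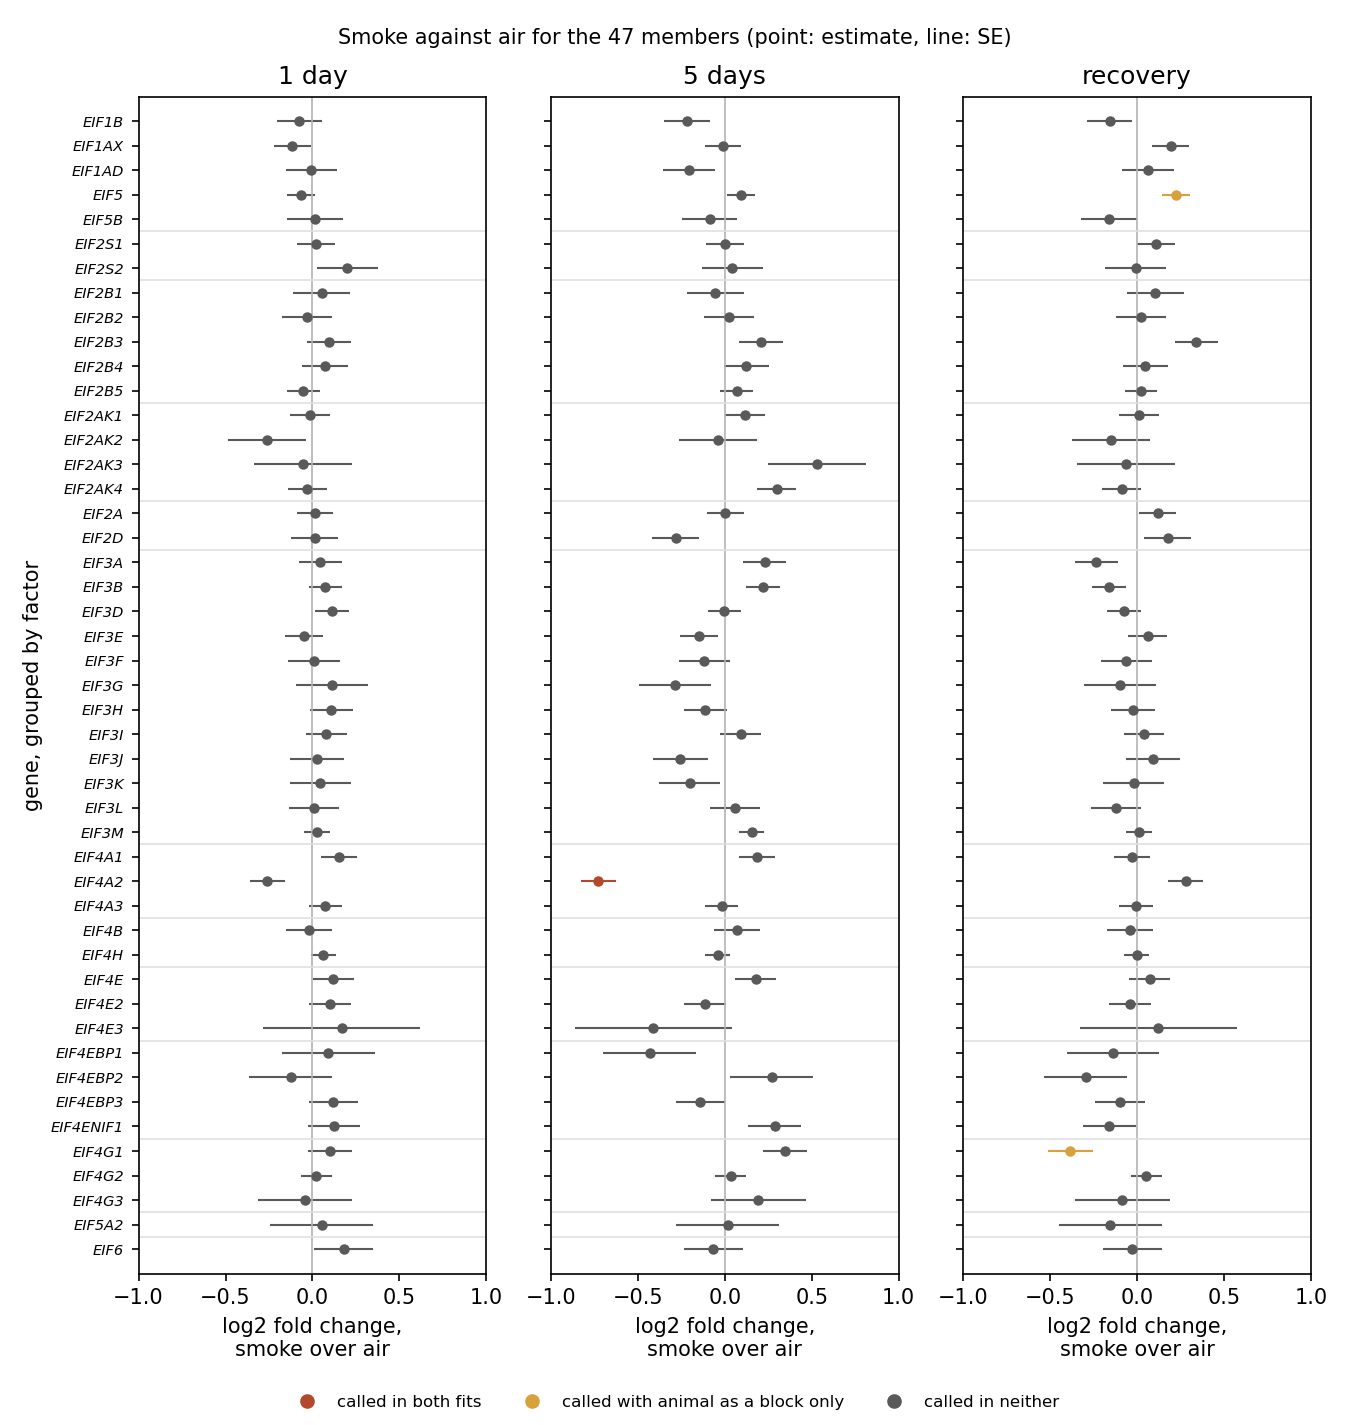
Log2 differences of smoke minus air for the 47 initiation factors at 1 day, 5 days and recovery, each gene a row, ordered by role. EIF4A2 at 5 days, at −0.73, is the farthest from 0 of the 47 genes at any time, and is the only one called without a block.

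Over the 47 genes, few initiation factors were called for smoke. At 1 day 0 were called by limma in either fit, where 0.0284% of all genes were called without a block and 0.0782% with animal as a block. At an unadjusted p under 0.05 without a block 1 of the 47 passed at 1 day, 5 at 5 days and 4 at recovery, where 1.88%, 9.29% and 8.51% of all genes did. At 5 days 1 was called in either fit, where 1.69% of all genes were called with animal as a block. At recovery 0 were called by limma without a block, where 0.242% of all genes were, and 2 with animal as a block, EIF4G1 and EIF5, where 3.41% of all genes were. Those 2 are 4.26% of the 47, near the share of all genes. Groups did not overlap for 2 of the 47 at 1 day (EIF6 higher, EIF4A2 lower), where 1.51% of all genes were higher and 2.59% lower without overlap. At 5 days they did not for 3 (EIF3A and EIF3M higher, EIF4A2 lower, where 1.81% and 1.65% of all genes did not), and at recovery for 2 (EIF2B3 and EIF5, both higher, where 3.67% were higher and 4.37% lower).

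The median log2 difference of the 47 genes was 0.03 at 1 day, 0.00 at 5 days and −0.02 at recovery, and that of all genes was 0.00, 0.01 and 0.01. Differences lay above 0 for 32, 24 and 20 of the 47 genes. The change of the effect between 5 days and recovery gave 4 calls with animal as a block (EIF4A2, EIF4G1, EIF3A and EIF3B), which is 8.51% of the 47, where 3.56% of all genes were called. The change from 1 day to 5 days gave 0 limma calls in either fit, where 0.0142% of all genes were called without a block and 0.0427% with it, and 1 of the 47 passed an unadjusted p under 0.05, where 3.65% of all genes did.

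Leaving out the 5-day air library of S1 changed the sign of 21 of the 47 differences at 5 days and moved 28 of them by more than 0.1. EIF4E3, a cap-binding protein, moved most, by 0.56, to a log2 difference of −0.98, or −0.81 with animal as a block. Its smoke minus air differences were 0.55, −0.55, −0.64 and −1.01 in S1 to S4. Without that library the unblocked fit sets smoke of 4 animals against air of 3, so such moves also hold differences between animals. EIF4A2 moved by 0.01. In the fit with animal as a block and without that library, 8 initiation factors were called at 5 days, where 6.26% of all genes were: EIF4A2 and EIF4E3 lower, and EIF3I, EIF2B4, EIF4G1, EIF4A1, EIF2S2 and EIF6 higher in smoke. At recovery 7 were called in that fit, where 18.8% of all genes were: EIF4A2, EIF2B3 and EIF5 higher, and EIF3A, EIF3B, EIF4G1 and EIF4EBP2 lower in smoke.

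Other measures moved with the groups. Approximate depth at 5 days was 14.4 ± 1.30 M reads in smoke libraries and 11.9 ± 1.44 M reads in air libraries (SD, n = 4 each), with ranges of 13.1 to 15.9 and 9.72 to 12.8 that did not overlap (two-sided exact permutation test, p = 0.0286, the smallest that 70 assignments can give, and 0.171 adjusted over 12 tests). At 1 day the library totals were 12.8 to 13.5 M in smoke libraries and 11.8 to 12.6 M in air libraries, also without overlap, with the same p and adjusted p by the same exact permutation test. The part of depth and totals in the results was not tested beyond scaling. With library totals as the only scaling EIF4A2 was still called at 5 days (−0.65, limma adjusted p = 0.0170). At recovery the basal markers summed to 19640 to 37120 in smoke libraries and to 51125 to 60882 in air libraries, and their part in the recovery differences was not tested. At 5 days those sums overlapped, at 29663 to 41566 in smoke and 30320 to 50629 in air.

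In air alone, more initiation factors were called over time than were called for smoke. The same held for all genes, so this was not particular to initiation factors. At 5 days against 1 day 2 were called without a block, where 3.98% of all genes were. EIF1B, a paralog of the start-codon factor eIF1, rose to 560, 334, 416 and 355 normalized counts at 5 days, against 279, 285, 267 and 275 at 1 day (0.56, limma adjusted p = 0.0232, or 0.41 and 0.0282 without the 5-day library of S1). EIF5 fell by 0.29 on the log2 scale (limma adjusted p = 0.0408). The blocked fit called 10, 21.3% of the 47, where 19.4% of all genes were. Leaving out S1, S2, S3 or S4 in turn ended the call of EIF5 (limma adjusted p = 0.0585, 0.105, 0.156 and 0.190), and so did leaving out any 1 air library of 1 day or that of S2 at 5 days (0.052 to 0.128). The call of EIF1B ended without S3 or S4 (0.129 and 0.144), and also when the 1-day air library of S1, S3 or S4 was left out (0.0646 to 0.0701). Without S1, S2, S3 or S4 the unblocked fit called 3.31%, 1.05%, 0.441% and 0.0711% of all genes.

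At recovery against 5 days in air, 4 were called without a block, 8.51% of the 47, where 11.3% of all genes were. EIF2D, a factor that can bring initiator tRNA to the ribosome without eIF2, fell to 570, 536, 553 and 534 normalized counts at recovery, against 1138, 722, 867 and 800 at 5 days (−0.66, limma adjusted p = 0.00452, or −0.53 and 0.00742 without the 5-day library of S1). EIF3A rose by 0.41 (limma adjusted p = 0.0353) and EIF4G1 by 0.40 (limma adjusted p = 0.0479), and EIF4A2 is the fourth. The blocked fit called 13, 27.7% of the 47, where 28.4% of all genes were. Leaving out any 1 animal ended the calls of EIF3A (limma adjusted p = 0.0501 to 0.136) and EIF4G1 (0.0567 to 0.145), as did leaving out the 5-day air library of S1 alone (0.0713 for EIF3A and 0.0884 for EIF4G1). The EIF3A call also ended without the air library of S4 at 5 days or of S1 or S2 at recovery (0.0644 to 0.113). That of EIF4G1 also ended without the air library of S2 or S4 at 5 days or any 1 at recovery (0.0597 to 0.142). Without S4 the call of EIF2D ended (0.0619). Without S1, S2, S3 or S4 the unblocked fit called 7.85%, 3.99%, 4.73% and 2.1% of all genes.

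Over the 23 libraries without the one that stood apart, the coefficient of variation of the 47 genes was 5.61 to 33.1% with a median of 11.7%. EIF4A2, at 23.3%, had the fourth highest. This spread runs over all groups, so it contains the group differences of EIF4A2 given above and is not separate evidence.

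Other genes of the translation machinery gave 0 calls for smoke without a block at 1 day, 5 days and recovery (4, 12 and 9 of 70 at an unadjusted limma p under 0.05). The list holds 76 genes and 70 of them met the minimum. Their median log2 differences were −0.02, 0.07 and −0.04. With animal as a block 2 were called at recovery, 2.86% of the 70, where 3.41% of all genes were: TSC2, an inhibitor of mTORC1 signalling, was lower in smoke (−0.40, limma adjusted p = 0.0255), and PAIP2, which binds and inhibits poly(A)-binding protein, was higher (0.34, limma adjusted p = 0.0387). For the change of the smoke effect from 5 days to recovery, LARP1, which binds messenger RNAs of the translation machinery, was called at −0.51 and PAIP2 at 0.51 in that fit (limma adjusted p = 0.0270 and 0.0281), again 2.86% of the 70, where 3.56% of all genes were. All 4 of these calls were lost with S2, S3 or S4 left out (limma adjusted p = 0.117 to 0.357). Those fits called at most 0.256% of all genes at recovery and at most 0.654% for the change.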

How the data were processed

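RNA was sequenced from 24 libraries of airway cultures. Libraries came from poly-A selected RNA, per the labels' protocols, and FastQC, Trim Galore, Bowtie2 and RSEM are named in the submitters' processing notes. No coordinates are printed, because the sources used here do not give the build or annotation, nor the normalizing tool. The deposited values are a normalized signal (normalized counts) that is not whole despite a table name that says raw counts, so no count model was used. Depth was approximated as the total over the value of 1 read, so precision is given as the spread between animals.

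Genes that reached 10 in 4 or more libraries were tested on log2(value + 1) in limma 3.58.1 (R 4.3.3, variance trend, 6 group means over 24 libraries, two-sided). Calls had a Benjamini-Hochberg adjusted p under 0.05 over 14062 genes. Animal as a block was the main alternative. Libraries of 1 animal were pairs by label: their deviations from group means correlated at 0.303 to 0.804 (60 pairs), against −0.443 to 0.0149 (180 pairs) between animals. Deviations within a group sum to 0, which pushes correlations between animals below 0, so the negative values are not evidence of pairing. The scripts were tested on simulated data. Group contrasts share libraries.

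The members and lists were chosen with earlier results of these data known. Genes named with values were the 3 EIF4A genes, members called for smoke or its change in either fit, the 2 largest differences in each direction at each time, the eIF2 kinases, the 4E-binding proteins and the members of highest and lowest mean. EIF1B, EIF2D, EIF3I, EIF3M, EIF4E3, EIF4G3 and EIF2B4 were added after their values were seen. Smoke over time, and the fits without the 5-day air library of S1 with animal as a block, were added after the data were seen.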

Additional observations from a re-analysis of the deposited data

Results flagged for a closer look

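The smoke effect on EIF4A2 differed between 5 days and recovery by 1.01 on the log2 scale, by a test of the difference itself in both fits. With animal as a block the same test passed for EIF4G1 (−0.73), EIF3A (−0.46) and EIF3B (−0.38).

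In 10 of 114 combinations of a named gene and a group, 1 library lay far from the other 3 (its gap to the nearest of them took up most of the group's range, past Dixon's limit). Chance alone marks about 1 in 20 groups. The air library of S1 at 5 days was the far one for EIF2S2 at 3467, EIF4EBP1 at 633.3, EIF4EBP3 at 3868 and EIF6 at 1716 normalized counts. Over all 47 genes it was the far one in 12 of 28 such combinations out of 282. The air library of S1 at 1 day was far for EIF2AK3 at 368.8, that of S4 at 1 day for EIF4EBP2 at 1495, and that of S3 at recovery for EIF4A2 at 3234. Among smoke libraries, S4 at 1 day was far for EIF2S2 at 1724, S3 at recovery for EIF4A1 at 5956 and S2 at recovery for EIF5A2 at 49.13.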

How the results depend on the processing

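Of 2285 comparisons of 84 gene results with an alternative, 2109 kept the side of the threshold and either kept the sign or, uncalled in both settings, moved by less than 1 SE. Both reversals were EIF6 at 5 days with animal as a block, at 0.23 without replicate 1 (S1) and 0.21 without the S1 air library of 5 days. Signs changed in 125 comparisons where neither setting gave a call. The replicate block changed the calls given above with animal as a block, and of the other gene results it changed EIF4G1 in smoke at recovery against 5 days (−0.33, limma adjusted p = 0.0266) and no other. Counts of called initiation factors moved as follows. With animal as a block they were 2 (recovery), 4 (change from 5 days to recovery), 10 (air, 5 days against 1 day) and 13 (air, recovery against 5 days), where 3.41%, 3.56%, 19.4% and 28.4% of all genes were called. With animal as a random effect they were 1, 3, 11 and 14, where 2.35%, 2.88%, 18.4% and 26.8% of all genes were called. With only the libraries of the contrast they were 0 (5 days), 0 (change from 5 days), 0 and 1 (both air comparisons), and with the block added 5 (1 day, EIF4A2, EIF2S2, EIF4A1, EIF4G1 and EIF6), 0 (5 days), 5 (recovery), 0 and 0 (air). Those 5 at 1 day and 5 at recovery are 10.6% of the 47 each, where 9.11% and 18.8% of all genes were called. Without the block such fits called 0.0% (5 days), 0.00711% (change), 0.0% and 0.114% (air) of all genes. With the block they called 0.0% at 5 days, and 0.0% and 0.0284% in air. Without S1 and with the block the counts were 6 (5 days), 5 (recovery), 5 (change) and 15 (air, recovery), where 5.93%, 20.2%, 11.0% and 26.5% of all genes were called. Without S4 and with the block the count was 0 for the change, where 0.00711% of all genes were called. With the block and the S1 air library of 5 days left out the counts were 8 (5 days), 7 (recovery), 6 (change), 11 and 15 (air). There 6.26%, 18.8%, 11.3%, 18.6% and 27.1% of all genes were called. An adjusted p of 0.1 gave 2, 9 and 11 (change, both air comparisons), where 111, 1571 and 2776 of the 14062 genes passed. No filter gave 1 and 2 (air), where 1.62% and 5.34% of all genes were called. Library totals gave 5 (air, 5 days), where 7.05% of all genes were called. Leaving out 1 animal or library gave 0 to 1 (5 days and recovery), 0 to 2 (change), 0 to 5 and 1 to 7 (air), and with the block 1 to 10 for air at 5 days. The shares of all genes called in those fits were 0.0142 to 0.377% (5 days), 0.0 to 3.39% (recovery) and 0.00711 to 1.2% (change). In air they were 0.0711 to 10.5% and 2.1 to 17.6%, and with the block 5.59 to 18.7% for air at 5 days. The change from 1 day to 5 days gave 0 calls throughout. Depth limits the genes of low value, such as EIF5A2.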
